A study of Mus musculus with 24 samples.

Results

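The genes described here are the histone H3 lysine 27 demethylases *Kdm6b* and *Kdm6a* and the genes of the complex around the H3 lysine 4 methyltransferases *Kmt2c* and *Kmt2d*: *Ncoa6*, *Paxip1*, *Wdr5*, *Ash2l*, *Rbbp5* and *Dpy30*. They were chosen by name, and all 10 were found among the 25135 genes listed at each age. The RNA came from nuclei of the Emx1 lineage, sorted by a SUN1-GFP reporter from the cortex of congenic C57BL/6 mice at postnatal day 1 (P1) and day 30 (P30), with 6 WT and 6 Kdm6b-cKO libraries at each age. Per the methods, WT animals were Kdm6b wt/wt and Kdm6b-cKO animals were Kdm6b f/f with Emx1-Cre, and both carried the SUN1-GFP reporter, in which Cre recombination marks the nuclear envelope. Emx1-Cre acts in dorsal telencephalic progenitors, whose progeny are cortical glutamatergic neurons, astrocytes and part of the oligodendrocytes, so a sorted sample is a mixture of cell types. The labels give no sex. Expression was measured in FPKM, the number of fragments per kilobase of transcript scaled to the fragments mapped in the library, and the ages were normalized separately.

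KDM6B (JMJD3) and KDM6A (UTX) remove methyl groups from H3K27me3, the repressive mark that Polycomb repressive complex 2 (PRC2) writes and Polycomb repressive complex 1 (PRC1) binds. KDM6A is also a subunit of the KMT2C and KMT2D complexes, which place mono-methylation of H3K4 at enhancers, so that removal of a repressive mark and placement of an active one are held in a single assembly. NCOA6 and PAXIP1 (PTIP) occur in these complexes but not in the core, while WDR5, RBBP5, ASH2L and DPY30 form the core module shared by all complexes of the COMPASS family. In neural progenitors KDM6B is known as an activator of differentiation genes that Polycomb holds silent.

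On the mouse build mm9, *Kdm6b* lies on the minus strand at chr11:69212016-69229696 and *Kdm6a* on the plus strand at chrX:17739701-17857062. *Kmt2c*, which the annotation calls Mll3, spans chr5:24777613-25004601, and *Kmt2d*, which it calls Mll2, spans chr15:98662100-98701636, both on the minus strand. Their longest annotated transcripts have 16901 and 19805 bases, the longest of the group, while that of *Dpy30* (chr17:74698814-74723284, minus strand) has 799 bases. *Rbbp5* lies at chr1:134373944-134402242. These genomic spans take in all annotated exons, introns and UTRs. Within the *Kdm6b* span the annotation places 1188 bases of 1700064E03Rik, a processed transcript on the opposite strand that is not listed in the tables, and within *Kmt2c* it places 3 pseudogenes. Whether the counting kept strands apart is not given in the sources used here, so reads of such overlapping genes cannot be told apart from those of the member.

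Of the 10 genes, 8 have an entry among the RefSeq promoters (GRCm38.p6), and *Kdm6b* and *Ash2l* have none. The upstream sequences of *Kmt2c* and *Kmt2d* are shown because these 2 genes had the highest correlation of levels across libraries among all pairs of members at P30. Each holds the 250 bases before the transcription start, 5′ to 3′ on the gene's strand. Capitals mark matches to 4 motifs, searched on both strands. The GC box was searched as GGGCGG, which appears as CCGCCC where it lies on the opposite strand. The ETS core was spelled CCGGAA, the box known as CCAAT by those letters, and the TATA box as TATAAA. Overlapping matches run together.

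Kmt2c, GRCm38.p6 chr5:25498784-25499033, minus strand: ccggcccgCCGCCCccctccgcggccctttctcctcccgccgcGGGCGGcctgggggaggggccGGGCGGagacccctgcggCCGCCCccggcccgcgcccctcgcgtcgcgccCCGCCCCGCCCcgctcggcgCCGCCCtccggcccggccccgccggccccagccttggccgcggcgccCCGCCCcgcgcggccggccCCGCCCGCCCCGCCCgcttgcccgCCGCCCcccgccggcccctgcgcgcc

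Kmt2d, GRCm38.p6 chr15:98871206-98871455, minus strand: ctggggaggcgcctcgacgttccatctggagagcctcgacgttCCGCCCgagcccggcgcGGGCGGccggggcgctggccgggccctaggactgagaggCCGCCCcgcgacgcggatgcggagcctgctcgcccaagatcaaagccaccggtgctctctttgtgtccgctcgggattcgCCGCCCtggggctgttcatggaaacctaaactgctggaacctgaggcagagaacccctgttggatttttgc

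The *Kmt2c* sequence held 12 GC box matches and 48 CpG, and the *Kmt2d* sequence 4 GC box matches and 26 CpG. Neither held any of the other motifs, so the capitals are all GC boxes and no motif overlapped another. Over 32851 RefSeq promoters of the same length the median was 6 CpG, and the GC box was found in 32.7% of them, the ETS core in 12.0%, the CCAAT box in 33.8% and the TATA box in 12.4%. Of the other members, *Paxip1* held 2 GC boxes, *Kdm6a* and *Wdr5* 1 each, and *Ncoa6*, *Rbbp5* and the 4 listed promoters of *Dpy30* none.

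The libraries differed in ways that touch these genes. Effective depth, read from the steps of 1 read in low FPKM values, ranged from 807000 to 3895000 reads in WT at P1 and from 189000 (library 5) and 343000 (library 0) to 2842000 in Kdm6b-cKO. At P30 it ranged from 5118000 to 8312000 in WT and from 1938000 to 8043000 in Kdm6b-cKO. The gene listed for the 45S ribosomal RNA precursor (*Rn45s*, called 45S here) ranged from 28.7 to 3423 FPKM at P1 and from 174.9 to 25878 FPKM at P30. At P1, WT libraries 2 to 5 and Kdm6b-cKO library 5 had 396 to 794 of 1127 olfactory receptor genes above 0 FPKM, the others at most 22. Kdm6b-cKO library 2 at P1 stood apart with 74.3 FPKM of *Xist*, and Kdm6b-cKO library 5 had 2.18 FPKM, against less than 1 FPKM in all 22 others. Summed glutamatergic neuron markers were present in every library, at 354 to 906 FPKM at P1 and 133 to 362 FPKM at P30. Oligodendrocyte markers at P30 summed to 229 to 429 FPKM (WT) and 120 to 164 FPKM (Kdm6b-cKO), with all 5 genes lower. GABAergic markers, which the Emx1 lineage should lack, summed to 2.43 to 39.5 FPKM (WT) and 24.5 to 45.7 FPKM (Kdm6b-cKO) at P30. The medians of these sums were 6.55 FPKM (WT) and 27.6 FPKM (Kdm6b-cKO), with all 4 tested genes higher. Astrocyte markers summed to 36.6 to 71.0 FPKM (WT) and 32.2 to 75.9 FPKM (Kdm6b-cKO) at that age. Markers of microglia, endothelial cells and oligodendrocyte precursors summed to at most 10.8, 8.77 and 4.51 FPKM in any library at P30. At P1 GABAergic markers summed to 87.1 to 131 FPKM (WT) and 41.3 to 117 FPKM (Kdm6b-cKO), with 4 of 5 genes lower, and astrocyte markers to 127 to 189 FPKM (WT) and 66.5 to 142 FPKM (Kdm6b-cKO), also with 4 of 5 lower. Oligodendrocyte markers at P1 summed to 17.4 to 28.1 FPKM (WT) and 10.4 to 21.8 FPKM (Kdm6b-cKO), with 3 of 4 tested genes lower, and those of their precursors to 7.40 to 14.9 FPKM (WT) and 1.84 to 10.3 FPKM (Kdm6b-cKO), with both lower. The 5 microglia genes were all lower at P1, at 21.9 to 48.5 FPKM (WT) and 9.03 to 45.4 FPKM (Kdm6b-cKO), while endothelial markers summed to 81.9 to 140.1 FPKM (WT) and 46.2 to 142 FPKM (Kdm6b-cKO). Whether these differences had a part in the members' values was not tested, and in such bulk samples fewer cells of a type and less RNA per cell cannot be told apart.

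*Kdm6b*, the targeted gene, was measured over its whole length, and its level did not separate the genotypes at either age. At P1 it spanned 24.9 to 51.0 FPKM across WT libraries (median 37.3) against 15.0 to 38.4 FPKM across those labelled Kdm6b-cKO (median 33.1). Kdm6b-cKO libraries 2 (15.0 FPKM) and 3 (18.7 FPKM) lay below all WT libraries, and the other 4 lay inside the WT range. The means were 37.8 ± 11.3 FPKM (WT) and 29.0 ± 9.67 FPKM (Kdm6b-cKO) (SD, n = 6 each), a log2 fold change of -0.41 (SE 0.29, 95% interval -1.03 to 0.21; limma adjusted p = 0.534, exact permutation p = 0.1905). The P1 difference ran from -0.57 (weights by depth) to -0.23 (Y-linked covariate) over the alternatives, and was -0.24 without Kdm6b-cKO library 2. At P30 it spanned 16.9 to 26.4 FPKM across WT libraries (median 20.6) against 17.5 to 28.1 FPKM across those labelled Kdm6b-cKO (median 24.4). None of the Kdm6b-cKO libraries was below the WT range there, and the log2 fold change was 0.12 (SE 0.17, 95% interval -0.25 to 0.48; limma adjusted p = 0.828). Which exons the floxed allele removes is not given in the sources used here, and values per exon were not analysed, so a whole-gene FPKM does not check the deletion where transcript outside the floxed exons remains. The study measured *Kdm6b* mRNA by quantitative PCR in sorted nuclei as its own check of the knockout. It reported that the transcript was efficiently lost in Kdm6b-cKO, and those data were not analysed here. Since the FPKM values do not check the deletion, WT and Kdm6b-cKO name the libraries' labels throughout. Each direction given here is one between libraries so labelled.

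*Kdm6a*, the X-linked paralog with the same enzymatic activity, was the gene in which compensation could be looked for. At P1 it spanned 3.01 to 5.78 FPKM across WT libraries (median 4.56) against 3.23 to 6.62 FPKM across those labelled Kdm6b-cKO (median 4.80). The groups overlapped, and only Kdm6b-cKO library 2, the one with the high *Xist* value, lay above all WT libraries. The log2 fold change was 0.02 (SE 0.33), and its 95% interval in folds ran from 0.618 to 1.66 (limma adjusted p = 0.984). At P30 *Kdm6a* spanned 5.59 to 8.60 FPKM across WT libraries (median 6.89) against 4.59 to 10.5 FPKM across those labelled Kdm6b-cKO (median 7.00). Here 2 Kdm6b-cKO libraries lay above and 2 below all WT libraries, and the log2 fold change was 0.04 (SE 0.21; limma adjusted p = 0.962). The interval in folds ran from 0.747 to 1.41 at P30, so a 2-fold rise lay outside the interval over all 12 libraries at both ages. The P1 *Kdm6a* values of Kdm6b-cKO libraries 5, 0 and 1 stood on about 4.9, 10.0 and 17.0 reads, and so carry large counting error. Within the 7 P1 libraries with at most 22 olfactory receptor genes above 0 (2 WT, 5 Kdm6b-cKO), the log2 interval ran from -1.33 to 1.08 and took in such a rise. The direction of these small differences was not stable. At P1 the log2 fold change was -0.11 (limma adjusted p = 0.848) without Kdm6b-cKO libraries 2 and 5. At P30 it was -0.34 (limma adjusted p = 0.344) in the 8 libraries with over 1000 FPKM of 45S. In the other P30 libraries (1 WT, 3 Kdm6b-cKO) the log2 difference was 0.576. Over all 12 P30 libraries it was 0.20 with weights by depth and 0.265 with array weights (limma adjusted p = 0.689 and 0.274).

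**Figure D1:**
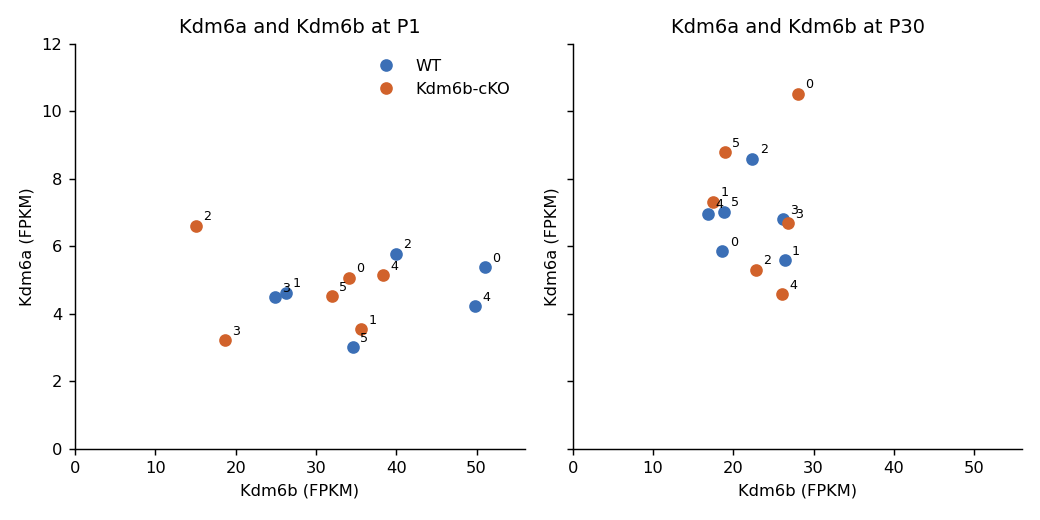
Kdm6a against Kdm6b at P1 (left) and P30 (right), in FPKM on linear axes, with 1 point per library (WT blue, Kdm6b-cKO orange, numbers are library numbers). The genotypes overlap on both axes at both ages, and Kdm6b-cKO library 2 at P1, with the lowest Kdm6b (15.0 FPKM) and the highest Kdm6a (6.62 FPKM), stands apart.

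Compared within each library, *Kdm6b* exceeded *Kdm6a* in all 24 libraries. At P1 the *Kdm6b* level was 5.43 to 11.5 times that of *Kdm6a* in WT and 2.25 to 9.80 times in Kdm6b-cKO. At P30 the same ratio was 2.40 to 4.65 in WT and 2.15 to 5.59 in Kdm6b-cKO. On the log2 scale the ratio of *Kdm6a* to *Kdm6b* at P1 was -2.99 ± 0.49 in WT and -2.56 ± 0.73 in Kdm6b-cKO (SD, n = 6 each), a difference of 0.43 (exact two-sided permutation p = 0.294). At P30 it was -1.64 ± 0.37 in WT and -1.72 ± 0.55 in Kdm6b-cKO, a difference of -0.08 (exact two-sided permutation p = 0.781). No shift of this ratio towards *Kdm6a* was larger than the spread between libraries. The ratio takes whole-gene *Kdm6b*, so it does not give the balance of intact *Kdm6b* and *Kdm6a* where transcript outside the floxed exons remains. Without Kdm6b-cKO library 2, the P1 difference in ratio fell to 0.15, the lowest value over the 12 libraries left out in turn.

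*Uty*, the Y-linked copy of *Kdm6a*, whose protein has at most weak demethylase activity, ranged from 0.551 to 5.11 FPKM in WT at P1 and was listed at 0 FPKM in Kdm6b-cKO libraries 0 and 2. Library 0 held 343000 effective reads, a depth at which a low gene may give no read. In the other 4 Kdm6b-cKO libraries *Uty* ranged from 0.724 to 8.38 FPKM. At P30 *Uty* was 3.32 ± 1.14 FPKM (WT) and 3.70 ± 1.20 FPKM (Kdm6b-cKO) (SD, n = 6 each; log2 fold change 0.16, SE 0.31, limma adjusted p = 0.868).

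Across the 10 members, none was called at P1 or at P30 by limma at an adjusted p under 0.05 with a change of more than 2-fold, and none passed the adjusted p alone. Over all genes tested, 0.0% were called by either rule at P1 (0 of 16250), and at P30 0.278% were called by both thresholds and 0.369% by the adjusted p alone (49 of 13289). With each P30 library left out in turn, 2 to 60 genes passed the adjusted p, with 2 without WT library 2, 3 or 5, and the count fell by over 1.5 times for each library except Kdm6b-cKO 2 and 4. No member passed in any of these. At an unadjusted p under 0.05, 2 members were counted at P1 (*Dpy30* higher, *Rbbp5* lower), against 14.5% of all genes (7.77% lower and 6.7% higher). At P30 1 member was counted (*Dpy30* lower), against 12.7% of all genes (7.37% lower and 5.34% higher). In none of the members were the genotypes free of overlap, which was the case for 1.29% of genes at P1 and 1.94% at P30. The median log2 fold change over the members was -0.15 at P1, where that over all genes tested was -0.25, and 0.15 at P30, where that over all genes was -0.05. At P1, 6 of the 10 lay below 0, and at P30 2 did.

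**Figure D2:**
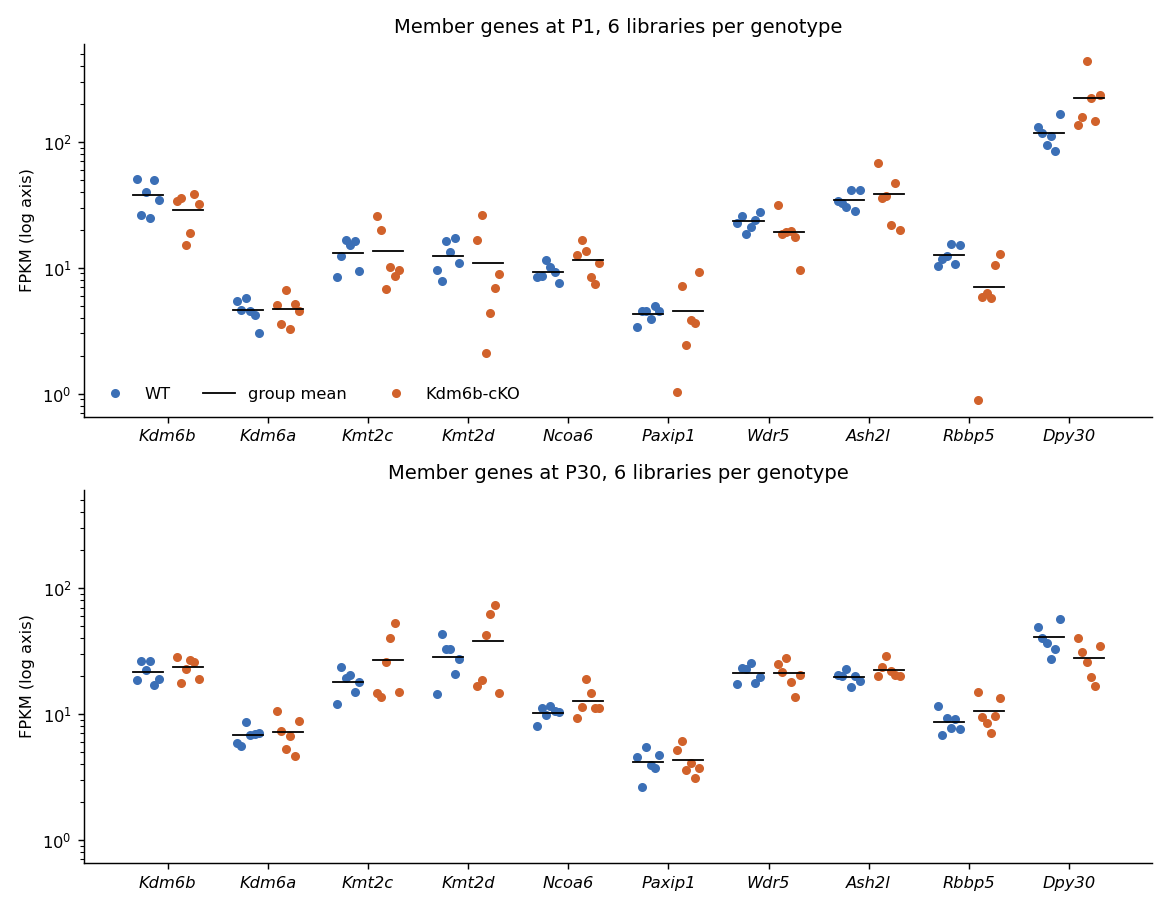
FPKM (log axis) of the 10 member genes at P1 (top) and P30 (bottom), with 1 point per library (WT blue, Kdm6b-cKO orange) and black bars at the group means of 6 libraries. The genotypes overlap for every gene at both ages, and Dpy30 has the highest mean and Paxip1 the lowest in WT.

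**Figure D3:**
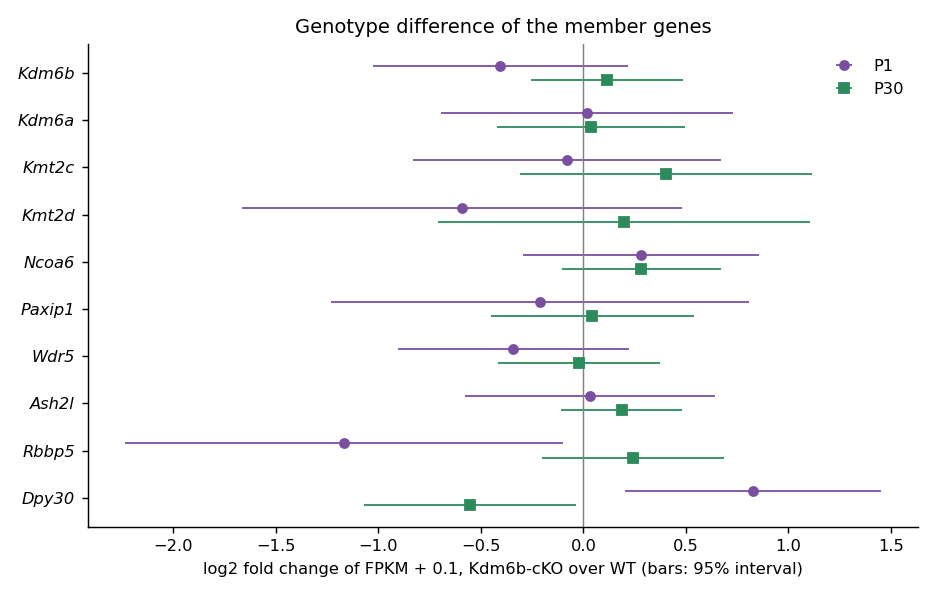
Log2 fold change of Kdm6b-cKO over WT from limma, with 95% intervals as bars, for P1 (circles) and P30 (squares). The intervals leave out 0 for Dpy30 at both ages, on opposite sides, and for Rbbp5 at P1, without adjustment for the number of genes tested.

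*Kmt2c* and *Kmt2d* encode the large catalytic subunits that set enhancer H3K4 mono-methylation. At P1, *Kmt2c* spanned 8.38 to 16.6 FPKM across WT libraries (median 13.8) against 6.73 to 25.8 FPKM across those labelled Kdm6b-cKO (median 9.84). *Kmt2d* spanned 7.88 to 17.1 FPKM across WT libraries (median 12.1) against 2.08 to 26.2 FPKM across those labelled Kdm6b-cKO (median 7.91). For both genes the Kdm6b-cKO libraries enclosed the WT range, with libraries 0 or 1 highest and library 2 lowest. The log2 fold change was -0.08 (SE 0.35) for *Kmt2c* and -0.59 (SE 0.51) for *Kmt2d*, with limma adjusted p of 0.931 and 0.595. Without Kdm6b-cKO libraries 2 and 5 it was 0.20 for *Kmt2c* and -0.17 for *Kmt2d*. Over the alternatives *Kmt2d* ran from -1.10 (weights by depth, limma adjusted p = 0.125) to -0.16 (the 7 libraries with few olfactory receptor genes). It was -1.02 with array weights, -0.90 without the shallow libraries 0 and 5, -0.93 without Kdm6b-cKO library 1 and -0.22 without library 2, none past the threshold.

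At P30, *Kmt2c* spanned 12.1 to 23.6 FPKM across WT libraries (median 18.6) against 13.5 to 52.3 FPKM across those labelled Kdm6b-cKO (median 20.3). *Kmt2d* spanned 14.4 to 43.1 FPKM across WT libraries (median 30.1) against 14.7 to 72.7 FPKM across those labelled Kdm6b-cKO (median 30.6). The Kdm6b-cKO libraries fell into 3 at the low end of the WT range and 3 at its upper end or above it. The coefficient of variation of *Kmt2c* was 22.7% in WT and 59.7% in Kdm6b-cKO, and that of *Kmt2d* was 35.4% and 66.7%. The log2 fold change was 0.40 (SE 0.33; limma adjusted p = 0.659) for *Kmt2c* and 0.20 (SE 0.42; limma adjusted p = 0.883) for *Kmt2d*.

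Both genes rose and fell together from library to library. Of the 90 correlations between members computed over both ages, the 2 of this pair alone passed 0.05 for Pearson's r after Benjamini-Hochberg adjustment. At P30, r was 0.95 and Spearman's rho 0.94 over 12 libraries (permutation p = 1e-05 for each, the smallest that 100000 resamples can give, adjusted p = 0.0009). Without the 2 libraries farthest from the median, r was again 0.95, and it was 1.00 within WT and 0.97 within Kdm6b-cKO. At P1, r was 0.81 (permutation p = 0.001, adjusted p = 0.045) and rho 0.79 (permutation p = 0.00341, adjusted p = 0.15). The points share their library, and the lengths of both transcripts are alike, so this is a description of these libraries.

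The same libraries differed in 45S, the listed gene of the ribosomal RNA precursor. Whether its reads came from unprocessed precursor or from mature ribosomal RNA was not tested. At P30 the 4 libraries with 174.9 to 450.1 FPKM of 45S (Kdm6b-cKO 0, 1 and 5, WT 0) had 12.1 to 14.9 FPKM of *Kmt2c* and 14.4 to 18.6 FPKM of *Kmt2d*. The 6 libraries with 1629 to 4027 FPKM of 45S had 14.9 to 25.6 FPKM of *Kmt2c* and 20.7 to 43.1 FPKM of *Kmt2d*. Kdm6b-cKO libraries 3 and 4, with 15419.8 and 25878 FPKM of 45S, had 39.9 and 52.3 FPKM of *Kmt2c* and 62.4 and 72.7 FPKM of *Kmt2d*. The 3 P30 libraries of the least depth are Kdm6b-cKO 2, 3 and 4. At P1 the highest *Kmt2c* values (25.8 and 20.0 FPKM) were those of Kdm6b-cKO libraries 0 and 1, which held 3423 and 3239 FPKM of 45S, and the lowest (6.73 FPKM) was that of library 2, with 28.7 FPKM. Among all 221 matched genes with transcripts of at least 10000 bases, the median deviation from a gene's mean at P30 was 0.53 and 0.63 on the log2 scale in Kdm6b-cKO libraries 3 and 4, and -0.42 to 0.23 in the other 10. Their part in the *Kmt2c* and *Kmt2d* values was not tested.

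**Figure D4:**
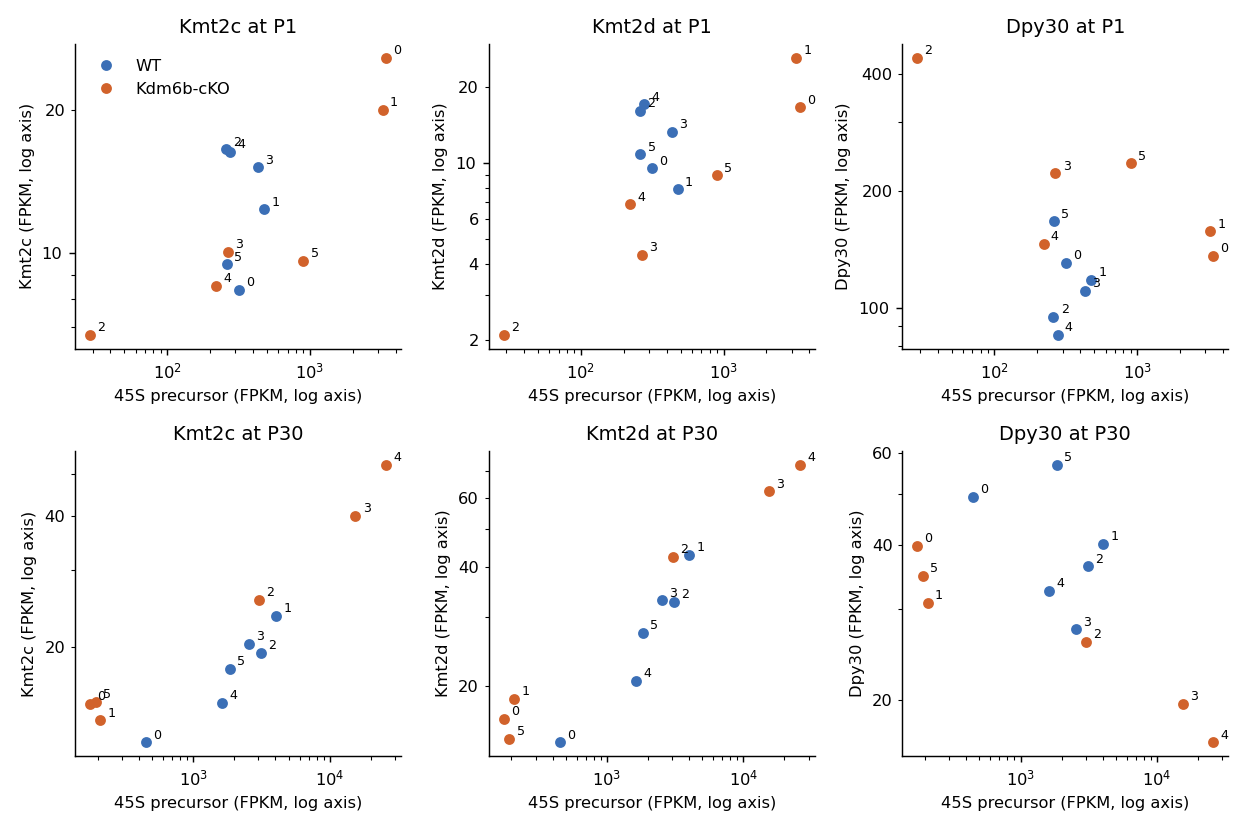
FPKM of Kmt2c, Kmt2d and Dpy30 against the 45S precursor (FPKM, log axes, scaled by panel) at P1 (top) and P30 (bottom), with 1 numbered point per library (WT blue, Kdm6b-cKO orange). At P30, Kdm6b-cKO libraries 3 and 4 have the most 45S and the highest Kmt2c (39.9 and 52.3 FPKM) and Kmt2d, and the lowest Dpy30 (19.7 and 16.6 FPKM).

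The genotype difference of these genes depended on how 45S entered the comparison. In the 8 P30 libraries with over 1000 FPKM of 45S (5 WT, 3 Kdm6b-cKO), the log2 fold change was 0.99 for *Kmt2c* (95% interval 0.45 to 1.52; limma adjusted p = 0.0306) and 0.92 for *Kmt2d* (limma adjusted p = 0.0452). *Dpy30* was -0.88 there (limma adjusted p = 0.0473). These 3 of 10 members passed the adjusted p, as did 10.6% of all genes tested in those libraries. *Kmt2c* and *Dpy30* were free of overlap, as were 20.1% of all genes. However, in these 8 libraries 45S itself was higher in Kdm6b-cKO (3034 to 25878 FPKM) than in most of WT (1629 to 4027 FPKM). In the other 4 libraries (1 WT, 3 Kdm6b-cKO) the log2 difference was 0.25 for *Kmt2c*, 0.19 for *Kmt2d* and -0.50 for *Dpy30*, with no test of use at this size. With a term for that split, the same 3 members passed, as did 10.7% of all genes. With log2 of 45S as a covariate, *Kmt2c* (0.50, limma adjusted p = 0.0124) and *Dpy30* (-0.61, limma adjusted p = 0.0306) passed, *Kmt2d* did not (0.33, limma adjusted p = 0.126), and 8.2% of all genes passed. With array weights, which lower the weight of libraries that deviate over all genes, *Kmt2c* was -0.14 and *Kmt2d* -0.50, both past 0 in the other direction and neither past the threshold (limma adjusted p = 0.649 and 0.210), which no member and 14.2% of all genes passed.

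*Ncoa6*, a nuclear receptor coactivator of the complex, spanned 7.61 to 11.5 FPKM across WT libraries and 7.37 to 16.5 FPKM across those labelled Kdm6b-cKO at P1, and 8.04 to 11.6 and 9.36 to 18.9 FPKM at P30. Its log2 fold change was 0.28 at both ages (SE 0.27 and 0.18; limma adjusted p = 0.639 and 0.551). *Paxip1*, a BRCT-domain protein that also acts in the DNA damage response, was the lowest member in WT, with 4.29 ± 0.55 FPKM at P1 and 4.15 ± 0.97 FPKM at P30 (SD, n = 6). In Kdm6b-cKO it ranged from 1.03 to 9.16 FPKM at P1, and both ends were the shallowest libraries, 0 and 5. At about 1.7 and 8.4 reads by the effective depth, these values carry large counting error. For *Paxip1* the log2 fold change was -0.21 (SE 0.48) at P1 and 0.04 (SE 0.23) at P30.

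Of the core module, *Wdr5*, a WD40 protein that holds the module to the methyltransferase, spanned 18.5 to 27.7 FPKM across WT libraries and 9.63 to 31.3 FPKM across those labelled Kdm6b-cKO at P1, and again both ends were libraries 5 and 0. At P30 it spanned 17.3 to 25.2 FPKM across WT libraries and 13.5 to 27.9 FPKM across those labelled Kdm6b-cKO. Its log2 fold change was -0.34 (SE 0.26; limma adjusted p = 0.562) at P1 and -0.02 (SE 0.18; limma adjusted p = 0.974) at P30. *Ash2l*, which with RBBP5 stimulates the catalytic domain, spanned 28.2 to 41.4 FPKM across WT libraries and 20.1 to 67.3 FPKM across those labelled Kdm6b-cKO at P1. At P30 it was 19.6 ± 2.09 FPKM (WT) and 22.4 ± 3.38 FPKM (Kdm6b-cKO) (SD, n = 6 each; log2 fold change 0.19, SE 0.14, limma adjusted p = 0.617). *Ash2l* had the narrowest interval of the 10 genes at P30, from -0.11 to 0.48.

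*Rbbp5*, the other partner in that contact, was lower in 4 of 6 Kdm6b-cKO libraries at P1 than in any WT library. It spanned 10.3 to 15.4 FPKM across WT libraries (median 12.1) against 0.892 to 12.7 FPKM across those labelled Kdm6b-cKO (median 6.09). Libraries 0 to 3 held 0.892, 5.87, 6.31 and 5.72 FPKM, and libraries 4 and 5 lay within the WT range at 10.5 and 12.7 FPKM. The lowest of these, library 0, stood on about 1.1 reads. This gave a log2 fold change of -1.17 (SE 0.50, 95% interval -2.23 to -0.10), with a limma adjusted p of 0.308 and an unadjusted exact permutation p of 0.0238. Without the 2 libraries under 500000 effective reads it was -0.85 (SE 0.26, limma adjusted p = 0.119), and without library 0 alone -0.67 (limma adjusted p = 0.307). Within the 7 libraries with at most 22 olfactory receptor genes above 0 it was -1.24 (exact permutation p = 0.333), and in the other 5, with 1 Kdm6b-cKO library, -0.05. At P30 the value was 8.65 ± 1.66 FPKM (WT) and 10.4 ± 3.02 FPKM (Kdm6b-cKO) (SD, n = 6 each; log2 fold change 0.24, SE 0.21, limma adjusted p = 0.670).

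*Dpy30*, the small subunit that binds ASH2L, had the highest mean of the members in WT at both ages. In Kdm6b-cKO at P30 the mean of *Kmt2d* was higher (37.9 FPKM, against 27.9 FPKM for *Dpy30*). *Dpy30* had differences of opposite sign at the 2 ages, neither past adjustment. At P1 it spanned 85.1 to 166.9 FPKM across WT libraries (median 114) against 136 to 439 FPKM across those labelled Kdm6b-cKO (median 189.5). Kdm6b-cKO libraries 2, 3 and 5 (439, 222 and 236 FPKM) lay above all WT libraries, and the other 3 lay at 136, 157 and 146 FPKM, inside the WT range. The log2 fold change was 0.83 (SE 0.29, 95% interval 0.21 to 1.45), with a limma adjusted p of 0.225 and an unadjusted exact permutation p of 0.0130. Without libraries 2 and 5 it was 0.50 (SE 0.23, limma adjusted p = 0.216). Quantile normalization gave 0.35 (SE 0.22, limma adjusted p = 0.479). Within the libraries with few olfactory receptor genes it was 0.68 (exact permutation p = 0.238), and in the other 5 it was 1.09.

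At P30 *Dpy30* spanned 27.4 to 57.0 FPKM across WT libraries (median 38.2) against 16.6 to 39.8 FPKM across those labelled Kdm6b-cKO (median 28.4). Kdm6b-cKO libraries 2, 3 and 4 (26.0, 19.7 and 16.6 FPKM) lay below all WT libraries, and libraries 0, 1 and 5 within their range. The log2 fold change was -0.56 (SE 0.24, 95% interval -1.07 to -0.04), with a limma adjusted p of 0.360 and an unadjusted exact permutation p of 0.0584. It stayed negative under every alternative run and passed the adjusted p in those that took 45S into account, given above. It was closer to 0 with array weights (-0.219, limma adjusted p = 0.4485) and with weights by depth (-0.379, limma adjusted p = 0.4507). Of the genes tested, the 790 whose longest transcript was under 1000 bases changed by a median of -0.23 (log2) at P30, and 1184 such genes changed by 0.078 at P1, where all genes had -0.25. Transcripts were matched for 85.7% of the genes tested at P1 and 86.7% at P30. Whether transcript length had a part in the *Dpy30* values was not tested.

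The difference between the genotype effects at P30 and P1 was tested over all 24 libraries and 12644 genes. None of the 10 members passed the adjusted p, which 0.00791% of all genes did (1 gene), and 2 had an unadjusted p under 0.05, against 13.2% of all genes. *Dpy30* differed by -1.38 on the log2 scale (SE 0.39, 95% interval -2.18 to -0.59; limma adjusted p = 0.145). *Rbbp5* differed by 1.41 (SE 0.56, 95% interval 0.26 to 2.57; limma adjusted p = 0.279), and by 0.91 without Kdm6b-cKO library 0 at P1. With array weights *Rbbp5* differed by 1.24 (limma adjusted p = 0.0434), and 4.12% of all genes passed (521 of 12644). The difference was 0.52 (SE 0.34) for *Kdm6b* and 0.02 (SE 0.34) for *Kdm6a*. The median over the members was 0.29, and over all genes 0.13.

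By mean FPKM in WT, which is a level per length, the order at P1 was *Dpy30* (118), *Kdm6b* (37.8), *Ash2l* (34.7), *Wdr5* (23.3), *Kmt2c* (13.0), *Rbbp5* (12.6), *Kmt2d* (12.5), *Ncoa6* (9.22), *Kdm6a* (4.59) and *Paxip1* (4.29). *Kdm6b* thus stood at percentile 85.2 of the genes with at least 1 FPKM and *Kdm6a* at percentile 36.7. Neighbours were compared by an exact sign permutation of their log2 ratio over 6 libraries, which cannot give less than p = 0.03125. *Dpy30* was above *Kdm6b*, *Ash2l* above *Wdr5*, *Wdr5* above *Kmt2c* and *Ncoa6* above *Kdm6a* in 6 of 6 libraries (exact p = 0.03125, adjusted p = 0.0703 over 9 pairs). The other neighbours did not differ beyond their spread. At P30 the order was *Dpy30* (40.5), *Kmt2d* (28.6), *Kdm6b* (21.6), *Wdr5* (20.9), *Ash2l* (19.6), *Kmt2c* (18.0), *Ncoa6* (10.2), *Rbbp5* (8.65), *Kdm6a* (6.81) and *Paxip1* (4.15). *Kmt2c* over *Ncoa6*, *Rbbp5* over *Kdm6a* and *Kdm6a* over *Paxip1* held in 6 of 6 libraries (exact p = 0.03125, adjusted p = 0.0938). The levels of the 2 ages were not compared by a test, since each age was scaled on its own.

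The genes whose log2 levels ran most like those of the demethylases over the 12 libraries of an age were found among those with a mean of at least 5 FPKM. For *Kdm6b* they were *Mon1a*, *Efnb1* and *Kazn* at P1 (Pearson's r 0.85, 0.83 and 0.83 among 9724 genes) and *Acot7*, *Taf3* and *Acrbp* at P30 (r 0.84, 0.81 and 0.79 among 8947). For *Kdm6a* they were *Prune1*, *Casd1* and *Zfp946* at P1 (r 0.89, 0.88 and 0.87 among 9725) and *Ccni*, *Slitrk5* and *Mm2pr* at P30 (r 0.93, 0.91 and 0.91). These genes were picked as the highest r over only 12 libraries, and their r were not tested. No gene was shared between the ages. *Kdm6a* and *Kdm6b* did not run together, with r of -0.03 at P1 (permutation p = 0.922) and -0.10 at P30 (permutation p = 0.768).

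The other genes of these pathways were read from 5 lists. None of them held a gene past the adjusted p at either age, which 0.0% of all genes tested passed at P1 and 0.369% at P30. The counts by unadjusted p stand against 7.77% lower and 6.7% higher over all genes at P1, and 7.37% lower and 5.34% higher at P30. Of 12 other COMPASS genes at P1, 2 were lower and 1 higher by unadjusted p (under 0.05). The lowest was *Hcfc1*, a host cell factor of the SETD1 and KMT2A complexes (18.8 ± 3.69 to 11.0 ± 3.92 FPKM, log2 fold change -0.84, limma adjusted p = 0.228), and the highest *Psip1*, which with menin ties KMT2A to chromatin (76.3 ± 20.4 to 187 ± 107 FPKM, log2 fold change 1.14, limma adjusted p = 0.191). At P30, 2 were lower and none higher, with *Pagr1a*, the partner of PAXIP1, lowest (297 ± 71.5 to 204.9 ± 41.4 FPKM, log2 fold change -0.53, limma adjusted p = 0.306). *Kmt2a*, another large methyltransferase, was highest there (56.1 ± 19.2 to 84.1 ± 52.5 FPKM, log2 fold change 0.42, limma adjusted p = 0.684). SDs are over 6 libraries per group, WT first, here and below.

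Of 11 PRC2 genes, the writers of the mark that KDM6 enzymes remove, 1 was lower and 1 higher at P1 by unadjusted p. *Ezh2*, the methyltransferase of dividing progenitors, was highest (22.6 ± 2.33 to 51.9 ± 24.2 FPKM, log2 fold change 1.06, SE 0.30, limma adjusted p = 0.185), and *Phf19* had the lowest log2 fold change (-1.03, SE 0.99, limma adjusted p = 0.638). At P30 10 were tested, with 1 lower and 2 higher. *Phf1*, a PRC2 accessory protein, was lowest (22.2 ± 2.58 to 14.0 ± 3.13 FPKM, log2 fold change -0.68, limma adjusted p = 0.111), and *Rbbp7*, a histone chaperone, highest (20.7 ± 7.67 to 28.3 ± 5.82 FPKM, log2 fold change 0.49, limma adjusted p = 0.388). The *Ezh2* effect differed between ages by -1.20 (SE 0.36, limma adjusted p = 0.178).

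Of 19 PRC1 genes at P1, 1 was lower and none higher at that p, with *Pcgf3* lowest (log2 fold change -1.61, SE 0.84, limma adjusted p = 0.395) and *Cbx8*, a chromodomain reader of H3K27me3, highest (0.62, SE 0.44, limma adjusted p = 0.527). At P30, of 18 tested, 3 were lower and 1 higher, and 13 lay below 0 with a list median of -0.29, where the median over all genes was -0.05. *Cbx8* was then the lowest (17.7 ± 7.32 to 9.11 ± 4.73 FPKM, log2 fold change -1.08, limma adjusted p = 0.270), and *Rnf2*, the ubiquitin ligase of the complex, the highest (0.48, SE 0.33, limma adjusted p = 0.590). Of 16 other histone lysine demethylases, 1 was higher at P1, *Kdm1a* (LSD1), which acts on H3K4 (41.1 ± 4.96 to 64.2 ± 20.2 FPKM, log2 fold change 0.58, limma adjusted p = 0.291), while *Kdm1b* was lowest (-0.86, SE 0.54, limma adjusted p = 0.481). At P30, of 15 tested, 1 was lower, *Kdm4b*, which acts on H3K9 (35.3 ± 6.51 to 23.8 ± 3.24 FPKM, log2 fold change -0.56, limma adjusted p = 0.155), and *Kdm2a* was highest (0.33, SE 0.19, limma adjusted p = 0.499). With so few of all genes past the adjusted p at either age, the list cannot decide whether another demethylase rose where *Kdm6b* was targeted.

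Of the sex-linked genes at P1, *Eif2s3y* had the lowest log2 fold change (-1.49, SE 1.32, limma adjusted p = 0.608) and *Xist* the highest (1.58, SE 1.26, limma adjusted p = 0.571), and the *Xist* value came from Kdm6b-cKO library 2 at 74.3 FPKM. At P30 *Uty* was lowest (0.16) and *Ddx3y* highest (0.39, SE 0.25, limma adjusted p = 0.552) of the 4 tested, all above 0.

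**Figure D5:**
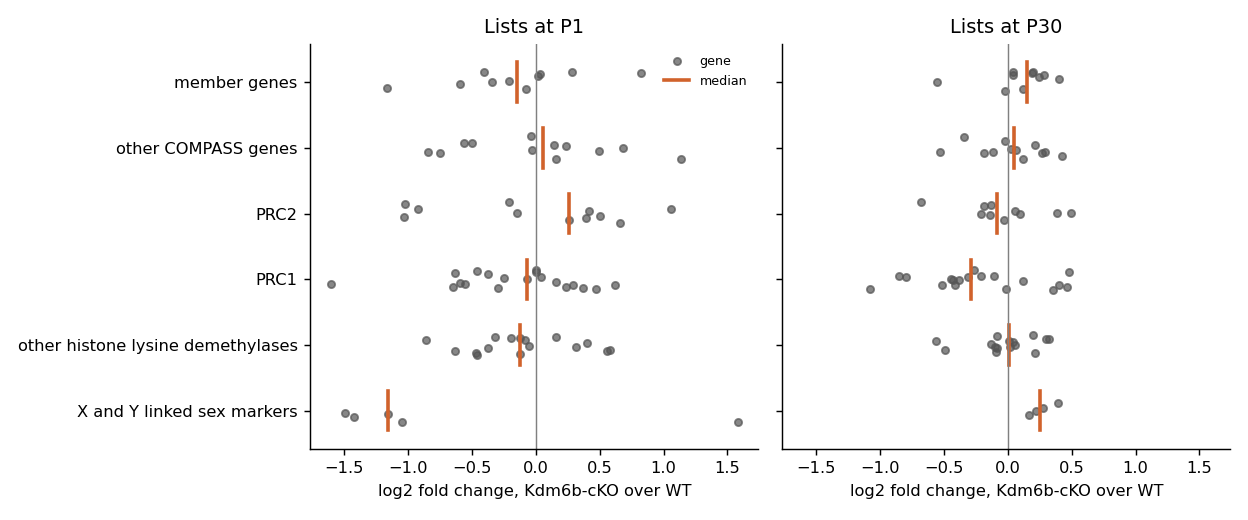
Log2 fold change of Kdm6b-cKO over WT at P1 (left) and P30 (right) for the 10 member genes and the genes of 5 lists, with 1 grey point per gene tested and an orange line at the median. The member median was -0.15 at P1 and 0.15 at P30, the spread is wider at P1 in each list, and no gene shown passed an adjusted p of 0.05.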

How the data were processed

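Nuclear RNA of SUN1-GFP-sorted Emx1-lineage cortical cells was sequenced in 24 libraries, on an AVITI or a NovaSeq 6000 per the labels, which do not say which library was run on which. The authors aligned reads to mm9 with HISAT2 and deposited Cuffdiff FPKM values per gene and library, a table per age. Further deposited columns hold the authors' own Cuffdiff comparison (fold changes, test scores, p-values and q-values), of which only each gene's locus was read. Columns are numbered 0 to 5, so they were assigned to groups only. The labels do not tie libraries to separate animals, so p-values measure only the spread between these libraries.

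For each age, values were taken as log2(FPKM + 0.1) and genotypes compared in limma 3.58.1 under R 4.3.3 (lmFit, then eBayes with the intensity trend; two-sided). Genes averaging under 1 FPKM across the 12 libraries were left out. All 10 members passed this filter at both ages. Fold changes are on that log2 scale, and p-values were adjusted by Benjamini-Hochberg over all genes tested. Single members and the ratio of *Kdm6a* to *Kdm6b* were also tested by exact permutation (two-sided) over all 924 allocations of the 12 libraries, which cannot give less than p = 0.00216. Intervals are at 95%. Effective depth assumes fragments of 200 bases and single-transcript genes, and covers counting error only. Loci and transcript lengths are from GENCODE on mm9, and promoters from RefSeq on GRCm38.p6. The rest was done in Python 3.11.15 (numpy 2.4.6; scipy 1.17.1; pandas 2.3.3; figures by matplotlib 3.10.9), and the scripts were tested on simulated data.

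The members, lists and alternatives were chosen with earlier results of these data known. Named genes are all members, *Uty*, the genes of each list past the adjusted p or, with none, those with the lowest and highest log2 fold change at an age, and the 3 genes most correlated with *Kdm6b* and *Kdm6a*. *Ezh2* between ages and the 45S precursor were added after the values were seen.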

Additional observations from a re-analysis of the deposited data

Results flagged for a closer look

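In groups of 6 libraries, 2 results had an end value unusually far from the rest, by Dixon's test at the 95% level. Chance gives such a value in about 5% of groups, and 48 groups were tested. Both came from Kdm6b-cKO library 2 at P1. *Dpy30* was 439.2 FPKM there, the next highest library held 235.5 FPKM and the lowest 136.2 FPKM (gap over range 0.672). The log2 ratio of *Kdm6a* to *Kdm6b* was -1.17 in that library, with -2.50 the next highest and -3.29 the lowest (gap over range 0.626). This library also had the lowest *Kdm6b* (15.0 FPKM), the highest *Kdm6a* (6.62 FPKM), 74.3 FPKM of *Xist*, *Uty* listed at 0, the least 45S (28.7 FPKM) and the lowest *Kmt2d* (2.08 FPKM) of the P1 libraries. Their part in the 2 values was not tested. The interval of the *Kdm6a* difference and the tests given for *Dpy30* include this library, and values without it and library 5 stand beside them.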

How the results depend on the processing

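No paired analysis was possible because the columns carry numbers 0 to 5 that match no replicate number of the labels. The alternatives were those fixed at the outset, plus a 45S covariate, subsets of libraries and counts by the adjusted p alone, which were chosen after seeing the data. A term for a split of the libraries was among those fixed at the outset. Its P30 cut at 1000 FPKM of 45S rests on a gene that was added after the values were seen. No member was called at either age under any alternative, leaving out each library in turn included. By the adjusted p alone no member passed at P1. At P30 the number passing went from 0 to 2 with the 45S covariate, 3 with a term for the 4 libraries under 1000 FPKM of 45S, and 3 within the other 8. Over all genes tested, 8.2%, 10.7% and 10.6% passed in these fits, against 0.369% in the main fit. With array weights, 1 member (*Rbbp5*) passed in the test between ages, against 0 otherwise, and 4.12% of all genes passed there. The genotype difference in the log2 ratio of *Kdm6a* to *Kdm6b* at P30 lay between -0.20 and 0.076 when each library was left out. It was above 0 without Kdm6b-cKO library 4. Quantile normalization moved the median of all genes at P1 from -0.25 to -0.12. Weights by depth gave 489 genes past the adjusted p at P1 and none among the members (*Dpy30* 0.99, adjusted p = 0.0606). The cause of these shifts was not tested.

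Some log2 fold changes changed sign, none of them past the threshold. Not all were near 0 in the main fit, where *Kmt2c* was 0.40 and *Kmt2d* 0.20 at P30, and *Ncoa6* was 0.28 at P1. At P1, *Kdm6a* was -0.087 with the Y-linked covariate, -0.066 with array weights, -0.052 with a term for the libraries rich in olfactory receptor genes, -0.026 with depth weights, -0.13 within the 7 others, -0.017 without the 2 shallowest and -0.11 without those with *Xist* over 1 FPKM. *Ash2l* was -0.004 with the 45S covariate, -0.051 with the Y-linked covariate, -0.14 with the olfactory term, -0.15 under quantile normalization and -0.004 without the 2 shallowest. *Kmt2c* was 0.062 with the Y-linked covariate, 0.29 within the 7 libraries and 0.20 without those with *Xist*. *Paxip1* was 0.031, 0.14 and 0.17 with the Y-linked covariate, the olfactory term and quantile normalization, and *Ncoa6* -0.018 with array weights. At P30, *Kdm6a* was -0.11 with the Y-linked covariate, -0.078 with the 45S term and -0.34 within the 8 libraries, where *Paxip1* was -0.12, -0.077 and -0.15. *Wdr5* was 0.05, 0.12, 0.08 and 0.023 with the Y-linked covariate, array weights, depth weights and quantile normalization. *Kmt2c* was -0.14 and *Kmt2d* -0.50 with array weights, and *Kmt2d* was -0.14 with depth weights. Between ages, *Paxip1* was -0.064 under quantile normalization.

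Leaving out each library gave ranges across 0 at P1 for *Ash2l* (-0.16 to 0.19), *Kdm6a* (-0.094 to 0.12), *Kmt2c* (-0.30 to 0.084) and *Paxip1* (-0.47 to 0.14), and at P30 for *Kdm6a* (-0.081 to 0.16), *Kmt2d* (-0.046 to 0.41), *Paxip1* (-0.08 to 0.13) and *Wdr5* (-0.11 to 0.10). Between ages it did so for *Ash2l* (-0.003 to 0.34), *Kdm6a* (-0.10 to 0.14), *Ncoa6* (-0.12 to 0.12) and *Paxip1* (-0.093 to 0.52). Depth at P1 was under 500000 effective reads in 2 libraries, and without them no gene passed the adjusted p either.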
